A study of Mus musculus with 10 samples.

Results

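Hearts of HIPK2 knockout mice were compared with wild-type hearts for 37 genes of fatty acid uptake and oxidation, out of 20607 genes measured. The genes were chosen by name: every non-control probe whose gene name was 1 of the 37 was taken, and the names cover uptake, the carnitine shuttle, beta-oxidation, electron transfer, fuel choice and the lipid droplet. They had 61 of the 56605 probes on the array, and 60 were kept after probes near background were left out. All 37 genes had a kept probe, and the probe used for each was well above background on all 10 arrays.

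The knockout group was 5 samples of cardiac tissue from male HIPK2-/- mice of a C57BL/6 line, made by injecting embryos with CRISPR reagents, and carried a frameshifting deletion of 56 bases in the second exon of Hipk2. The wild-type group was 5 samples of cardiac tissue from male mice labelled Wild Type. Both groups had free access to chow, and no age, further treatment or number of founder lines is stated in these sources. The deletion is carried in the germline, so it is not limited to 1 cell type of the heart. The HIPK2 protein (homeodomain interacting protein kinase 2) sits in the nucleus and phosphorylates transcription factors and their partners. Hipk2 mRNA, read by a probe at mm9 chr6:38648097-38648156, differed by 0.04 ± 0.16 on the log2 scale (SE, limma adjusted p = 0.902), and where that probe lies relative to the deleted stretch was not examined, so it does not check the genotype labels.

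The adult heart takes most of its energy from long-chain fatty acids. Lipoprotein lipase and CD36 bring them to the cardiomyocyte, acyl-CoA synthetase activates them, and the carnitine shuttle moves them into the mitochondrial matrix, where repeated rounds of beta-oxidation release acetyl-CoA and pass electrons to the respiratory chain. Malonyl-CoA blocks entry at CPT1, and PDK4 restrains the oxidation of glucose when fat is plentiful. Many of these genes are known targets of the nuclear receptors PPAR-alpha and ERR-alpha and their coactivator PGC-1-alpha.

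All levels are log2 signal relative to the 75th percentile of the same array, a fold change is the knockout mean minus the wild-type mean of these levels, and a gene was called changed at an adjusted p under 0.05. The 75th percentile of signal was 286 to 460 on the knockout arrays and 462 to 542 on the wild-type arrays, and between 45.8% and 58.3% of spots in knockout samples and between 55.7% and 60.4% in wild-type samples were clearly brighter than background. The tissue label fitted its markers: all 10 cardiomyocyte markers were kept, with a mean level per array of 8.50 to 8.98 in knockout hearts and 7.98 to 8.53 in wild-type hearts. Wild-type array 2 stood apart, with the highest mean level of white fat markers (-0.09, against -4.28 to -2.07 on the other 9 arrays) and of atrial markers (5.07, against -0.93 to 4.53), and values without it are given where leaving it out changed a called value or moved a fold change by over 1.5 times, and for the medians. The samples were numbered within each genotype, and no label states that the 5 of a group were separate mice, so the p-values rest on sample-to-sample spread, which may be technical.

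Acadm was the only one of the 37 genes called changed. It encodes medium-chain acyl-CoA dehydrogenase, which performs the opening step of each round of beta-oxidation on medium-length chains. The array reads it with 1 probe of 60 bases at mm9 chr3:153585469-153585528 on the minus strand, and the first 30 bases are shown because this probe carries the single call.
Acadm probe, bases 1 to 30: cacgtcagactgtgacatagcagcatttct

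Hadhb, which encodes the beta subunit of the mitochondrial trifunctional protein, was read by 3 probes that gave different answers, so their first 30 bases are shown to tell them apart. They lie on the plus strand at mm9 chr5:30510925-30510984 (terminal probe), chr5:30503442-30503500 (internal probe) and chr5:30494754-30494813 (a probe designed on an Ensembl transcript model). Terminal and internal name only the order of these positions on the chromosome, because the place of each probe within the transcript was not examined.
Hadhb terminal probe, bases 1 to 30: gaatcgtctttgtaacatttgcagatactc
Hadhb internal probe, bases 1 to 30: accaaagataatgggatccgtccttcctca
Hadhb transcript-model probe, bases 1 to 30: tgtacacgttgtcccttgacttccccaagt

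Promoter windows from RefSeq (build GRCm38.p6, 250 bases before to 50 after the start of a gene) were found for 31 of the 37 genes. The window of Acadm, chr3:153944594-153944893 on the minus strand, is shown as the promoter of the called gene. Capitals mark its single nuclear receptor half-site AGGTCA, which reads as TGACCT on the printed strand and covers positions -249 to -244 from the start.
Acadm promoter: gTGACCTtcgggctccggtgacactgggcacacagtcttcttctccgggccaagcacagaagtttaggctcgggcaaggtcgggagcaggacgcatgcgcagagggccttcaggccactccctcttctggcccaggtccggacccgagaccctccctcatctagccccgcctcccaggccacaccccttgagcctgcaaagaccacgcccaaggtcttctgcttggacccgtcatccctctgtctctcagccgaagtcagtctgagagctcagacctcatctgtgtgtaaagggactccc

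Hadha and Hadhb, the 2 subunits of the trifunctional protein, start back to back on chromosome 5, and the window of Hadhb (chr5:30155003-30155302, plus strand) is shown for that reason. Capitals mark the 228 bases, chr5:30155003-30155230, that it shares with the window of Hadha.
Hadhb promoter: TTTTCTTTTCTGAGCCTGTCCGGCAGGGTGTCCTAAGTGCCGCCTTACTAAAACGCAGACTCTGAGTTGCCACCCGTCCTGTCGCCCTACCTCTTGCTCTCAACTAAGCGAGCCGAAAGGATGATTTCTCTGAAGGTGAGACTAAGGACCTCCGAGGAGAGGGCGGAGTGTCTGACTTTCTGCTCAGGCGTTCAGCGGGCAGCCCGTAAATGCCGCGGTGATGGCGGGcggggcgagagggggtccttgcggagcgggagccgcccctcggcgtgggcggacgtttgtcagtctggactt

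Of the 31 genes with a window, 8 (25.8%) held AGGTCA on either strand, against 18.1% of all 27025 genes with a window. These were Acacb, Acadm, Acadvl, Cd36, Cpt1a, Echs1, Plin5 and Ucp3. The longer element TCAAGGTCA, known for binding estrogen-related receptors and overlapping the half-site, was in 0 of the 31 windows and in 0.466% of all genes. A direct repeat of AGGTCA with 1 base between the copies, known for binding PPAR with its partner RXR, was likewise in 0 of the 31 and in 0.048% of all genes. A match is a description of letters in this window and not a site.

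Across the 37 genes, 1 rose, 0 fell and 36 did not pass the test, where 4.94% of all genes passed (1.97% rose and 2.97% fell). The fold change was above 0 for 30 genes and below 0 for 7, with a median of 0.17 on the log2 scale, beside a median of 0.03 over all genes. At an unadjusted p under 0.05 there were 10 of the 37, all higher in knockout hearts, where 27.2% of all genes met that rule (14.8% higher and 12.3% lower). In 2 of the 37, Acadm and Cpt2, the knockout and wild-type values did not overlap, with knockout higher, where this held for 8.98% of all genes (4.54% with knockout higher and 4.44% with knockout lower). A p that misses the threshold does not show that the genotypes were alike, and the 95% intervals are given in the plot of fold changes.

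**Figure D1:**
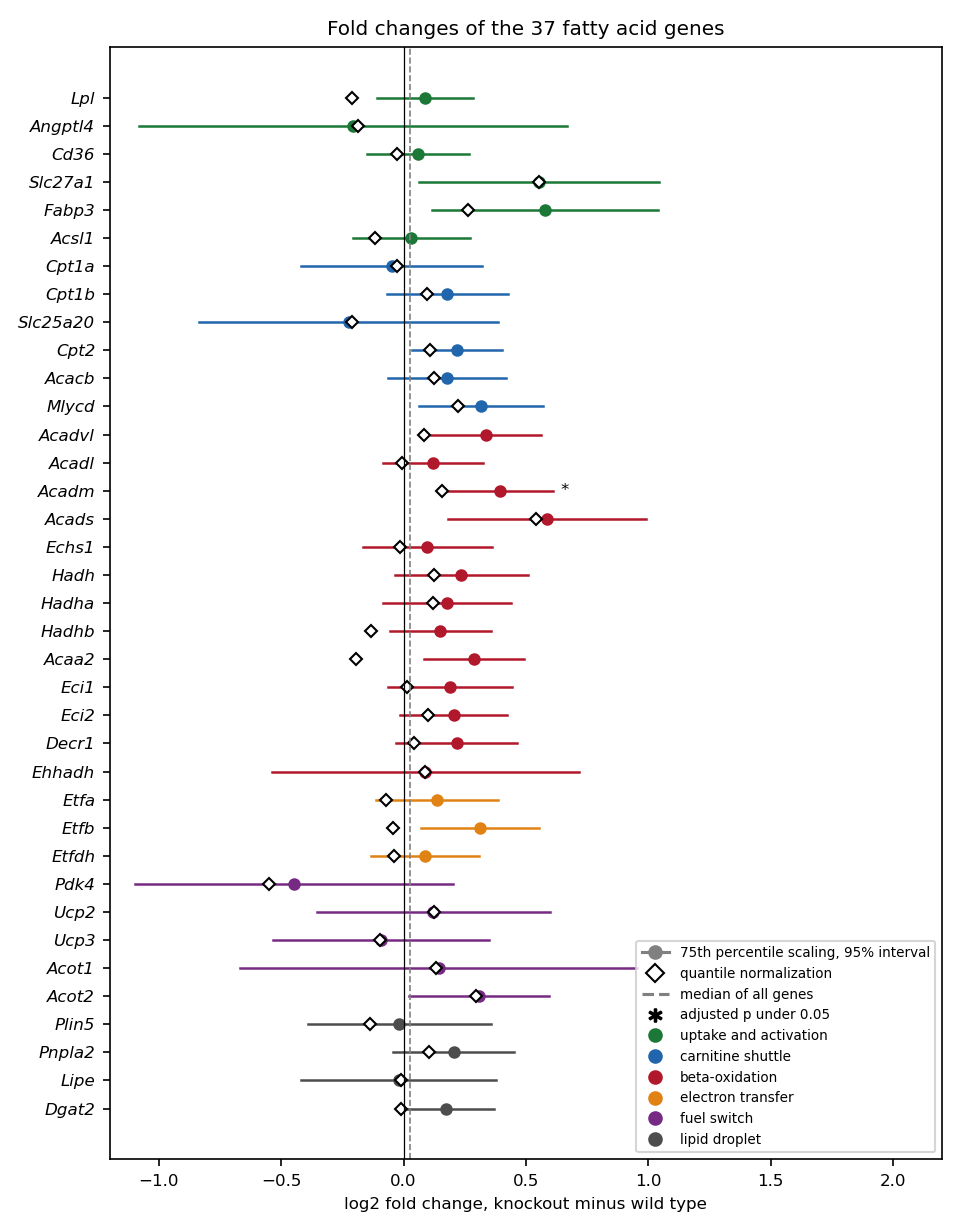
Fold changes of the 37 fatty acid genes. The x axis is the log2 fold change, knockout minus wild type; filled points with lines are the estimate and its 95% interval after scaling to the 75th percentile, coloured by role, open diamonds are the estimate after quantile normalization, and the dashed line is the median of all genes (0.03). The star marks Acadm, the single gene past the threshold, and 30 of the filled points but 19 of the diamonds lie right of 0.

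The fold change of all genes depended on how bright they were, and the fatty acid genes are bright. Among all genes at a level of 6 to 8 the median fold change was 0.18 (582 genes), and at 8 or more it was 0.42 (141 genes), against 0.02 for the 10820 genes below 0. Of the 37 genes, 16 lay at a level of 6 to 8, with a median fold change of 0.16, and 4 lay at 8 or more, with a median of 0.30. Set against the median of all genes in their own brightness range, 19 of the 37 were above it and 18 below, with a median difference of 0.01. After quantile normalization, which gives every array the same distribution of values, the median of the 37 was 0.01, with 19 above 0 and 18 below, and all genes at a level of 8 or more had a median of 0.04. The share of this dependence in any single fold change was not tested. The brightness ranges were set after the fold changes were seen.

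**Figure D2:**
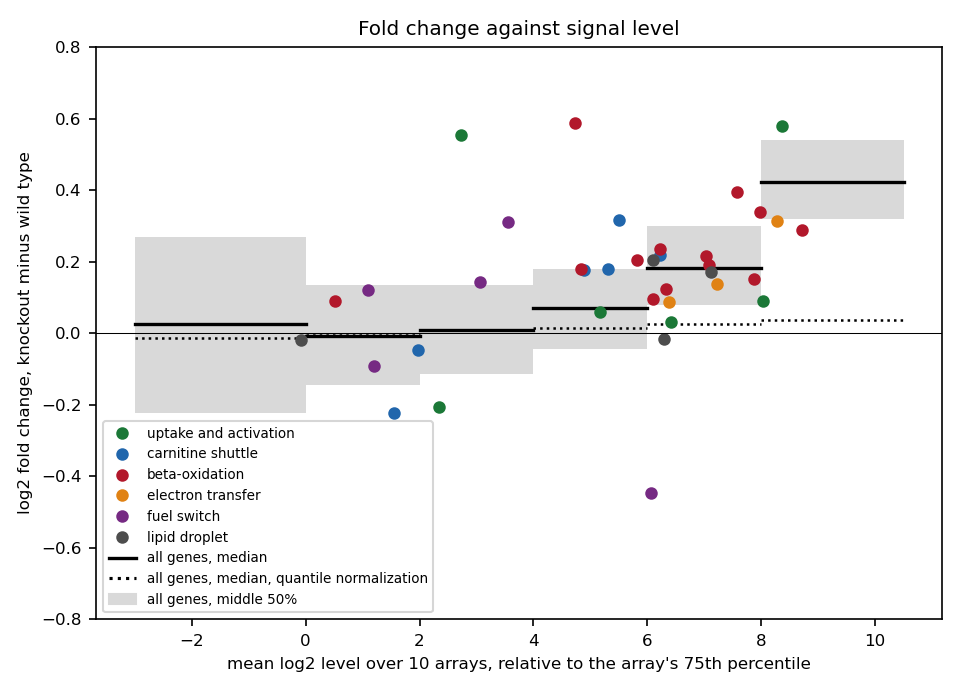
Fold change against level. The x axis is the mean log2 level over 10 arrays relative to the 75th percentile, the y axis the log2 fold change, knockout minus wild type; points are the 37 genes by role, bars and grey bands are the median and middle 50% of all genes in each brightness range, dotted lines the median after quantile normalization. The solid bars climb to 0.42 at the bright end while the dotted ones stay at or below 0.04, and 18 of the 37 points lie within the grey bands.

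With this scaling and all arrays, the beta-oxidation enzymes had the highest median fold change of the 6 roles, although the carnitine shuttle was above them without knockout 1 (0.18 against 0.17) and without wild type 5 (0.22 against 0.20). All 13 had a fold change above 0 (0.09 to 0.59, median 0.20), 1 passed the test, 0 fell, and 4 had an unadjusted p under 0.05. After quantile normalization 9 of 13 stayed above 0, with a median of 0.08, below the fuel choice (0.12) and carnitine shuttle (0.10) groups. In the value table that the authors deposited, 8 of 13 were above 0, with a median of 0.01, again below both groups. Against equally bright genes 9 of 13 were above the median, with a median difference of 0.05, below fuel choice (0.13) and carnitine shuttle (0.07). Of the cardiomyocyte markers, 9 of 10 had a fold change above 0, with a median of 0.52, or 0.06 after quantile normalization and 0.34 within the slide that held both genotypes. Of these markers 0 passed the test, but 8 had an unadjusted limma p under 0.05, where 27.2% of all genes did. With normexp background correction 5 passed, where 15.1% of all genes passed. The summed signal of the markers relative to the 75th percentile was 4778 to 7418 on knockout arrays and 3101 to 4993 on wild-type arrays. Array by array the markers and the enzymes went together on some arrays and not on others. Knockout 4 and 1 had mean marker levels of 8.91 and 8.71, with beta-oxidation and electron transfer genes a median of 0.27 and 0.24 above their 10-array means. Wild type 2 had a marker level of 7.98, with these genes a median of 0.19 below. Knockout 3 had the highest marker level (8.98) with these genes a median of 0.13 below, and the lowest 75th percentile of signal (286). Wild type 1 had a low marker level (8.02) with these genes a median of 0.07 above. The part of cardiomyocyte content in the enzyme values was not tested. In whole tissue fewer cells of a type and less RNA per cell cannot be told apart.

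Acadm levels were 7.86, 7.78, 7.69, 7.96 and 7.59 in knockout hearts 1 to 5, against 7.40, 7.17, 7.53, 7.35 and 7.44 in wild-type hearts 1 to 5. Every knockout value was above every wild-type value, the closest being knockout 5 and wild type 3. The means were 7.77 ± 0.14 in knockout hearts and 7.38 ± 0.14 in wild-type hearts (SD, n = 5 each). This is a fold change of 0.39 ± 0.10 (SE), or 1.31-fold, with a limma adjusted p of 0.0468. The call lay close to the threshold: it held in 1 of 10 fits that left out 1 array (without knockout 5), the fold change ran from 0.34 to 0.44 over those fits, and the adjusted p reached 0.0999 without wild type 2. After quantile normalization the fold change was 0.16 ± 0.06, with an adjusted p of 0.145, and in the value table that the authors deposited it was 0.11, with an adjusted p of 0.337.

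The other chain-length specific dehydrogenases did not pass the test. Acadvl, the very-long-chain enzyme of the inner membrane, had levels of 8.21, 8.07, 8.15, 8.28 and 8.0 in knockout hearts, against 7.74, 7.54, 8.01, 7.80 and 7.92 in wild-type hearts. Only knockout 5 lay within the range of the wild-type values, just under wild type 3, and the fold change was 0.34 ± 0.10 (adjusted p = 0.0768). With normexp background correction it was 0.33 and passed (adjusted p = 0.0392), and after quantile normalization it was 0.08. Acads, the short-chain enzyme, had levels of 4.88, 5.09, 4.88, 5.23 and 4.99 in knockout hearts, against 4.90, 3.83, 4.17, 4.59 and 4.66 in wild-type hearts. Knockout values were close together, while wild type 2 and 3 lay well below the rest. Its fold change was 0.59 ± 0.18 (adjusted p = 0.084), 0.54 after quantile normalization (adjusted p = 0.1) and 0.44 without wild type 2. It was the largest of the 37 with all arrays, but Slc27a1 (0.53) and Fabp3 (0.46) were above it without wild type 2, and Slc27a1 was above it after quantile normalization (0.55). Acadl, the long-chain enzyme of rodents, showed 0.12 ± 0.09 (adjusted p = 0.416), with knockout 1 the highest at 6.61 and knockout 3 the lowest at 6.18.

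None of the later enzymes of the spiral passed limma's test at the adjusted threshold. Acaa2, the thiolase that releases acetyl-CoA, had levels of 8.95, 8.88, 8.69, 9.02 and 8.71 in knockout hearts, against 8.73, 8.51, 8.59, 8.45 and 8.53 in wild-type hearts. Wild type 1 overlapped the 2 lowest knockout arrays, and the other wild-type arrays lay below all knockout arrays. Acaa2 thus differed by 0.29 ± 0.09 (adjusted p = 0.0874), below the 0.42 of equally bright genes, and it was -0.19 after quantile normalization. Hadha, the alpha subunit of the trifunctional protein, had levels of 4.88, 4.98, 4.93, 5.04 and 4.82 in knockout hearts, against 5.11, 4.82, 4.79, 4.48 and 4.56 in wild-type hearts. Wild type 1 was the highest of all, wild type 4 and 5 the lowest, and the fold change was 0.18 ± 0.12 (adjusted p = 0.351).

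Its partner Hadhb showed 0.15 ± 0.09 (adjusted p = 0.317) with the terminal probe, which was the brightest, with means of 7.96 in knockout hearts and 7.81 in wild-type hearts. The internal probe gave 0.38 ± 0.11, with means of 5.69 in knockout hearts and 5.30 in wild-type hearts, and an adjusted p over probes of 0.0746. The transcript-model probe went the other way, at -0.45 ± 0.19 (adjusted p over probes 0.172), and was dim, with means of -0.66 in knockout hearts and -0.20 in wild-type hearts. The sign for Hadhb therefore depended on which of the probes shown above was read, and none of the 3 passed.

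The isomerases and the reductase that handle unsaturated chains did not pass the test. Eci2, an enoyl-CoA isomerase, had levels of 6.05, 5.96, 5.70, 6.09 and 5.82 in knockout hearts, against 5.87, 5.60, 5.81, 5.64 and 5.68 in wild-type hearts. Decr1, the dienoyl-CoA reductase, had levels of 7.36, 7.13, 6.89, 7.30 and 7.02 in knockout hearts, against 7.11, 6.70, 6.98, 6.86 and 6.96 in wild-type hearts. The genotypes overlapped in both genes, because knockout 3 was low and wild type 1 was high. Fold changes were 0.20 ± 0.10 for Eci2 (adjusted p = 0.209), 0.22 ± 0.11 for Decr1 (adjusted p = 0.239) and 0.19 ± 0.12 for Eci1, the other mitochondrial isomerase (adjusted p = 0.305). A second, dimmer probe of Eci2 gave 0.22 ± 0.11. Hadh, the short-chain hydroxyacyl-CoA dehydrogenase, showed 0.23 ± 0.12 (adjusted p = 0.242) and Echs1, the short-chain hydratase, 0.10 ± 0.12 (adjusted p = 0.632), with 0.06 from a second probe of Echs1.

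Ehhadh, the bifunctional enzyme of peroxisomes, was the dimmest and most variable of the 13. Its levels were 0.45, 1.19, -0.06, 0.51 and 0.72 in knockout hearts, against 1.44, 0.45, 0.08, 0.09 and 0.30 in wild-type hearts, and wild type 1 was the highest array. Ehhadh differed by 0.09 ± 0.29 (adjusted p = 0.867).

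**Figure D3:**
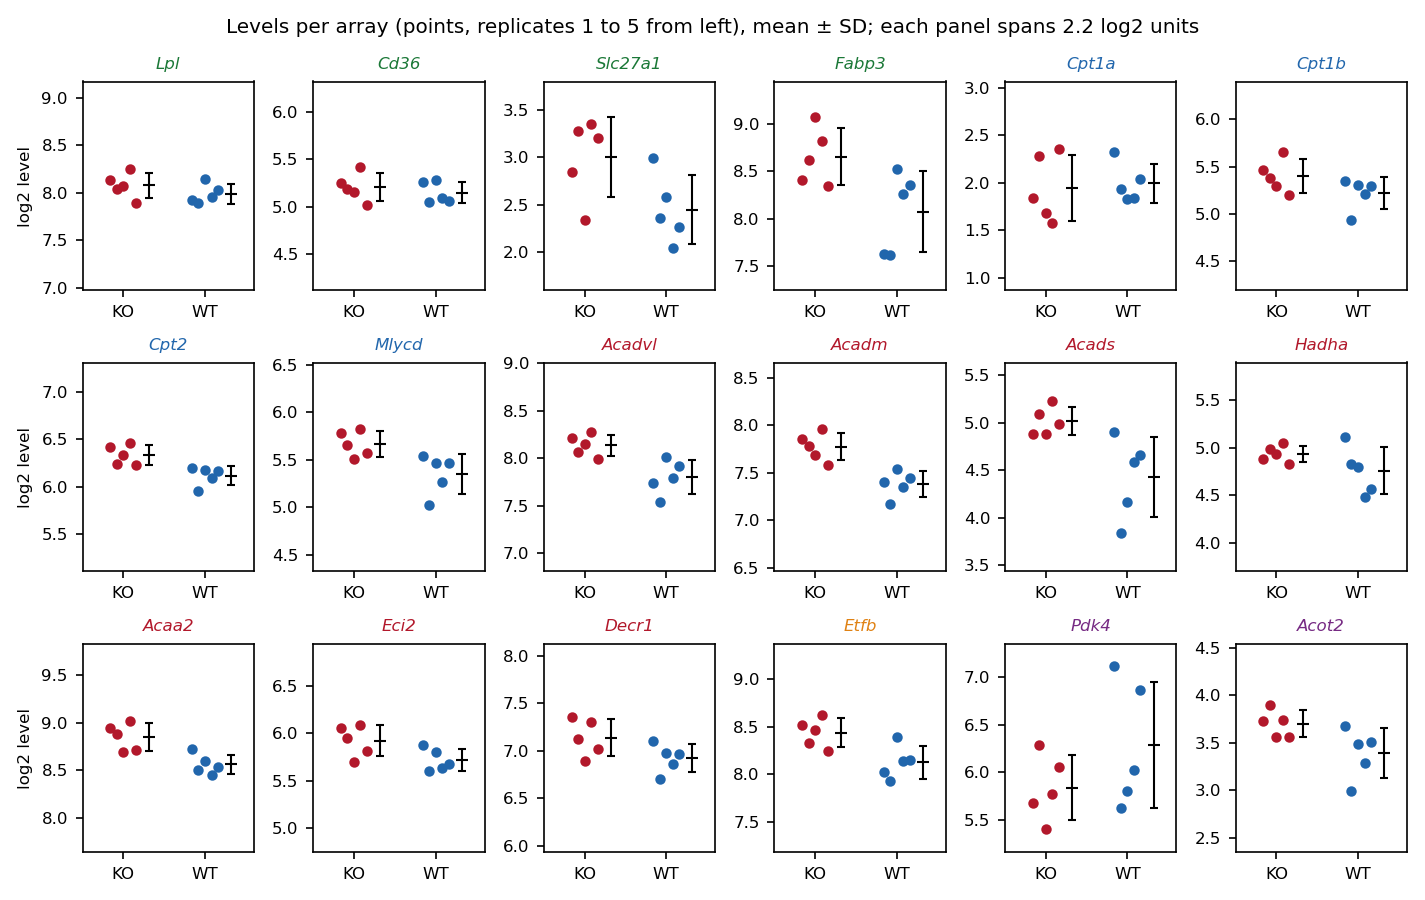
Levels of 18 of the 37 genes per array. The y axis is the log2 level relative to the 75th percentile and each panel spans the same 2.2 log2 units; points are arrays 1 to 5 of HIPK2 knockout (KO, left) and wild type (WT, right), and the bar is the mean with SD. Knockout and wild-type points are separate for Acadm and Cpt2 and overlap in the other panels, and the Pdk4 panel shows wild type 1 and 5 above the rest.

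Electron transfer flavoprotein takes electrons from the acyl-CoA dehydrogenases, and the 3 genes of the electron transfer group did not pass the test. Etfb, the beta subunit, had levels of 8.52, 8.33, 8.46, 8.63 and 8.24 in knockout hearts, against 8.03, 7.93, 8.39, 8.14 and 8.15 in wild-type hearts. Wild type 3 lay among the knockout values and the other 4 wild-type arrays below them. Its fold change was 0.31 ± 0.11 (adjusted p = 0.105), with 0.30 from a second probe. Etfa, the alpha subunit, showed 0.14 ± 0.11 (adjusted p = 0.459), with 0.13 and 0.22 from its other probes, and Etfdh, the dehydrogenase that hands the electrons to ubiquinone, showed 0.09 ± 0.10 (adjusted p = 0.599), with -0.10 from a dim second probe. The median of the 3 was 0.14, but -0.04 after quantile normalization, where 0 of 3 were above 0, and 0 of 3 were above the median of equally bright genes.

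In the carnitine shuttle and its malonyl-CoA brake, 0 of 6 genes passed in either direction, 4 of 6 were above 0, and the median was 0.18 (0.10 after quantile normalization, again with 4 of 6 above 0). Cpt2, which rebuilds acyl-CoA inside the matrix, had levels of 6.42, 6.24, 6.34, 6.46 and 6.23 in knockout hearts, against 6.20, 5.96, 6.18, 6.09 and 6.17 in wild-type hearts. The genotypes did not overlap, with knockout 5 just above wild type 1. Cpt2 differed by 0.22 ± 0.08 (adjusted p = 0.126), a second probe gave 0.34 ± 0.13, and all genes of like brightness had a median of 0.18.

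Mlycd, malonyl-CoA decarboxylase, removes the inhibitor of CPT1. Its levels were 5.78, 5.65, 5.50, 5.83 and 5.57 in knockout hearts, against 5.54, 5.02, 5.47, 5.27 and 5.46 in wild-type hearts. Only wild type 1 reached into the knockout range, and wild type 2 was the lowest array. For Mlycd the difference was 0.32 ± 0.11 (adjusted p = 0.115), or 0.23 without wild type 2, and a second probe gave 0.30 ± 0.14. Acacb, the mitochondria-bound carboxylase that makes malonyl-CoA, showed 0.18 ± 0.11 (adjusted p = 0.316), or 0.11 without wild type 2, and its 2 dimmer probes gave 0.31 and -0.21, so the probes did not share a sign.

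Neither form of the gatekeeper CPT1 passed. Cpt1b, the muscle form, had levels of 5.46, 5.38, 5.29, 5.66 and 5.20 in knockout hearts, against 5.35, 4.93, 5.31, 5.21 and 5.30 in wild-type hearts. Knockout 1, 2 and 4 lay above every wild-type value, knockout 3 and 5 among them, and wild type 2 was the lowest array. The fold change was 0.18 ± 0.11 (95% interval -0.07 to 0.43, adjusted p = 0.319), and 0.11 without wild type 2. Cpt1a, the liver form, was dimmer, with levels of 1.84, 2.28, 1.68, 1.58 and 2.35 in knockout hearts, against 2.32, 1.94, 1.83, 1.84 and 2.04 in wild-type hearts. The knockout values spread wider than the wild-type values on both sides, and the fold change was -0.05 ± 0.17 (95% interval -0.42 to 0.32, adjusted p = 0.88). Slc25a20, the carnitine-acylcarnitine carrier, showed -0.22 ± 0.28 (adjusted p = 0.631). Wild type 2 was its highest array at 2.72, and without that array the fold change was 0.04.

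For uptake and activation, 0 of 6 genes passed, 5 of 6 were above 0 with a median of 0.07, and after quantile normalization 2 of 6 were above 0 with a median of -0.07. Fabp3, the fatty acid binding protein of heart cytosol, had levels of 8.41, 8.62, 9.08, 8.83 and 8.35 in knockout hearts, against 7.64, 7.62, 8.52, 8.26 and 8.36 in wild-type hearts. Wild type 1 and 2, the 2 arrays on a slide of their own, were far below the rest, and knockout 3 was the highest array. The fold change was 0.58 ± 0.21 (adjusted p = 0.115), 0.46 without wild type 2, and 0.28 within the other slide (adjusted p = 0.386). A second Fabp3 probe gave 0.73 ± 0.25, but it shares 51 of its 60 bases with the first and is no separate reading of the transcript. After quantile normalization the estimate was 0.26, with all equally bright genes at 0.04.

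Slc27a1, the fatty acid transport protein FATP1, had levels of 2.84, 3.27, 2.34, 3.35 and 3.20 in knockout hearts, against 2.99, 2.36, 2.58, 2.04 and 2.26 in wild-type hearts. Knockout 3 lay with the wild-type arrays and wild type 1 with the knockout arrays. Its fold change of 0.55 ± 0.22 (adjusted p = 0.144) was the same after quantile normalization, at 0.55, and left-out arrays gave 0.45 to 0.72. Acsl1, the main acyl-CoA synthetase of the heart, showed 0.03 ± 0.11 (adjusted p = 0.878), with 0.10 from a second probe and -0.58 ± 0.28 from a dim probe on an Ensembl transcript model that exceeded background on 3 of 5 knockout arrays and on every wild-type array.

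The genes of supply from blood did not pass the test. Lpl, lipoprotein lipase, had levels of 8.14, 8.03, 8.07, 8.25 and 7.90 in knockout hearts, against 7.92, 7.89, 8.15, 7.95 and 8.03 in wild-type hearts, a fold change of 0.09 ± 0.09 (95% interval -0.11 to 0.29, adjusted p = 0.545). Its 6 probes ranged from -0.14 to 0.23. Equally bright genes had a median of 0.42, and after quantile normalization Lpl was at -0.21 (adjusted p = 0.114), so its sign depended on the scaling. Cd36, the fatty acid translocase, had levels of 5.25, 5.18, 5.16, 5.42 and 5.02 in knockout hearts, against 5.26, 5.04, 5.28, 5.09 and 5.06 in wild-type hearts. The ranges overlapped almost wholly, and the fold change was 0.06 ± 0.09 (95% interval -0.15 to 0.27, adjusted p = 0.723). Angptl4, an inhibitor of lipoprotein lipase, had the widest scatter of the 37 (SD within genotypes 0.72), from 1.49 to 3.44 in knockout hearts and 1.39 to 3.09 in wild-type hearts, with a fold change of -0.21 ± 0.40 (adjusted p = 0.768), or -0.47 without wild type 2.

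Endothelial markers, which belong to the cells that display lipoprotein lipase, are given beside the uptake genes. They include Gpihbp1 (-0.10), which is also counted below among the other uptake genes. Below 0 were 8 of 8, with a median of -0.15, where 9450 of all 20607 genes were below 0. Of the 8, 2 fell, Kdr (-0.80, limma adjusted p = 0.0147) and Emcn (-0.41, limma adjusted p = 0.0433), where 2.97% of all genes fell. The summed signal of the 8 markers relative to the 75th percentile was 116 to 137 on knockout arrays and 134 to 147 on wild-type arrays. The part of endothelial content in the uptake values was not tested.

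Among the genes of fuel choice, uncoupling and acyl-CoA hydrolysis, 0 of 5 passed, 3 of 5 were above 0, and spread was the widest of any role, with a median SD within genotypes of 0.38 against 0.17 for the beta-oxidation enzymes. Pdk4, the kinase that shuts down pyruvate dehydrogenase and is induced by fasting, had levels of 5.68, 6.29, 5.40, 5.77 and 6.06 in knockout hearts, against 7.11, 5.62, 5.80, 6.02 and 6.87 in wild-type hearts. Wild type 1 and 5 stood above all other arrays, and the remaining wild-type arrays lay among the knockout arrays. Pdk4 differed by -0.45 ± 0.30 (95% interval -1.1 to 0.20, adjusted p = 0.348), or -0.24 without wild type 1.

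Acot1 and Acot2, near neighbours on chromosome 12 that encode a cytosolic and a mitochondrial acyl-CoA thioesterase, did not pass the test. Acot1 had levels of 3.17, 3.50, 2.35, 3.27 and 3.36 in knockout hearts, against 4.43, 2.79, 2.41, 2.51 and 2.77 in wild-type hearts. Wild type 1 was far above every other array, while the other wild-type values lay below all knockout values except that of knockout 3. The fold change was 0.14 ± 0.37 (adjusted p = 0.831), and 0.51 without wild type 1. Acot2 had levels of 3.73, 3.90, 3.57, 3.74 and 3.56 in knockout hearts, against 3.68, 3.00, 3.48, 3.29 and 3.51 in wild-type hearts. Wild type 1 again overlapped the knockout values, wild type 2 was the lowest, and the fold change was 0.31 ± 0.13 (adjusted p = 0.157), or 0.21 without wild type 2. The longest run of bases shared by the 2 probes was 6 of 60.

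The uncoupling proteins of the inner membrane gave 0.12 ± 0.22 for Ucp2 (adjusted p = 0.749) and -0.09 ± 0.20 for Ucp3 (adjusted p = 0.796), and a second, dimmer probe of Ucp2 gave -0.13 ± 0.23. For both, the knockout range, 0.53 to 1.72 for Ucp2 and 0.71 to 1.67 for Ucp3, held the whole or nearly the whole of the wild-type range, 0.79 to 1.23 for Ucp2 and 0.95 to 1.67 for Ucp3.

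In the lipid droplet group 0 of 4 passed, 2 were above 0 and 2 below, with a median of 0.08, and after quantile normalization the median was -0.01. Pnpla2, adipose triglyceride lipase, which begins triglyceride breakdown, showed 0.20 ± 0.11 (adjusted p = 0.265), with 5.94 to 6.41 in knockout hearts and 5.73 to 6.14 in wild-type hearts. Dgat2, which makes triglyceride, showed 0.17 ± 0.09 (adjusted p = 0.241), with 7.05 to 7.40 in knockout hearts and 6.90 to 7.19 in wild-type hearts. Plin5, the droplet coat protein of oxidative tissue, showed -0.02 ± 0.17 (adjusted p = 0.96) and 0.17 ± 0.15 from a second probe, and Lipe, hormone-sensitive lipase, showed -0.02 ± 0.18 (adjusted p = 0.957). Lipe was the dimmest of the 37, at a mean level of -0.09 in knockout hearts and -0.07 in wild-type hearts, and 1 of its 3 probes was not kept. White fat markers are given beside this group: 5 of 7 were kept, Adipoq and Plin1 were not, 4 of 5 were below 0 and 0 passed. Cfd, Car3 and Retn were kept through the wild-type arrays only, so the rule for keeping probes favoured a value below 0. They were dim, with knockout means of -3.60, -4.58 and -5.03. The summed signal of the 5 kept markers was 0.558 to 1.38 on knockout arrays and 0.689 to 7.15 on wild-type arrays. The highest value was wild type 2, and the next highest wild-type array was at 1.46. In a fit with the mean level of 4 fat markers (Cfd, Car3, Cidec and Retn) as a covariate, the median of the 37 was 0.02, against 0.17 without it. In that fit 22 were above 0 and 0 passed, and the droplet group had a median of 0.02. The remaining kept marker, Lep, was not in that score and went the other way, at 0.38 ± 0.11 (limma adjusted p = 0.0661).

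The beta-oxidation and electron transfer genes went up and down together from array to array, within genotypes as well as between them. Of these 16 genes, the number above their own 10-array mean was 15, 16, 5, 15 and 6 in knockout hearts 1 to 5, against 13, 0, 4, 0 and 0 in wild-type hearts 1 to 5. Knockout 3 and 5 thus sat nearer to the wild-type arrays, and wild type 1 nearer to the knockout arrays. Of all 37 genes, these 16 among them, the number was 28, 36, 11, 29 and 17 in knockout hearts, against 28, 2, 10, 2 and 9 in wild-type hearts. The pattern was therefore not particular to the 16. A 10-array mean holds both genotypes, so the counts include the genotype difference. Whether equally bright genes moved in the same way was not tested. Over all 37 genes, knockout 4 gave the highest value for 19 and wild type 2 the lowest for 16. Without wild type 2 the median of the 37 was 0.12 and all 13 beta-oxidation enzymes were still above 0, with a median of 0.18. Leaving out wild type 2 also moved the smaller fold changes of Cd36 to 0.03, Ucp2 to 0.06, Plin5 to -0.07 and Lipe to -0.05, none of which passed with or without it. Without wild type 1 the median of the 37 was 0.22. The 2 slides split the wild-type arrays, with wild type 1 and 2 on a slide of their own, and within the other slide, which holds both genotypes, the median of the 37 was 0.18, with 34 above 0 and 0 passing. On that slide the 3 wild-type arrays and knockout 1 lay in row 1 and the other 4 knockout arrays in row 2. With slide and row both in the fit, the genotype estimate rested on knockout 1 alone against wild type 3 to 5, the arrays of row 1 on that slide. The median of the 37 was then 0.28, that of the beta-oxidation enzymes 0.36 and that of the fuel choice group -0.17. Atrial markers were 3 of 4 below 0, with a median of -2.49, and Nppa was at 0.03. With the mean level of Myl7, Myl4 and Sln, and not Nppa, as a covariate, the median of the 37 was 0.08, with 26 above 0 and 0 passing.

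**Figure D4:**
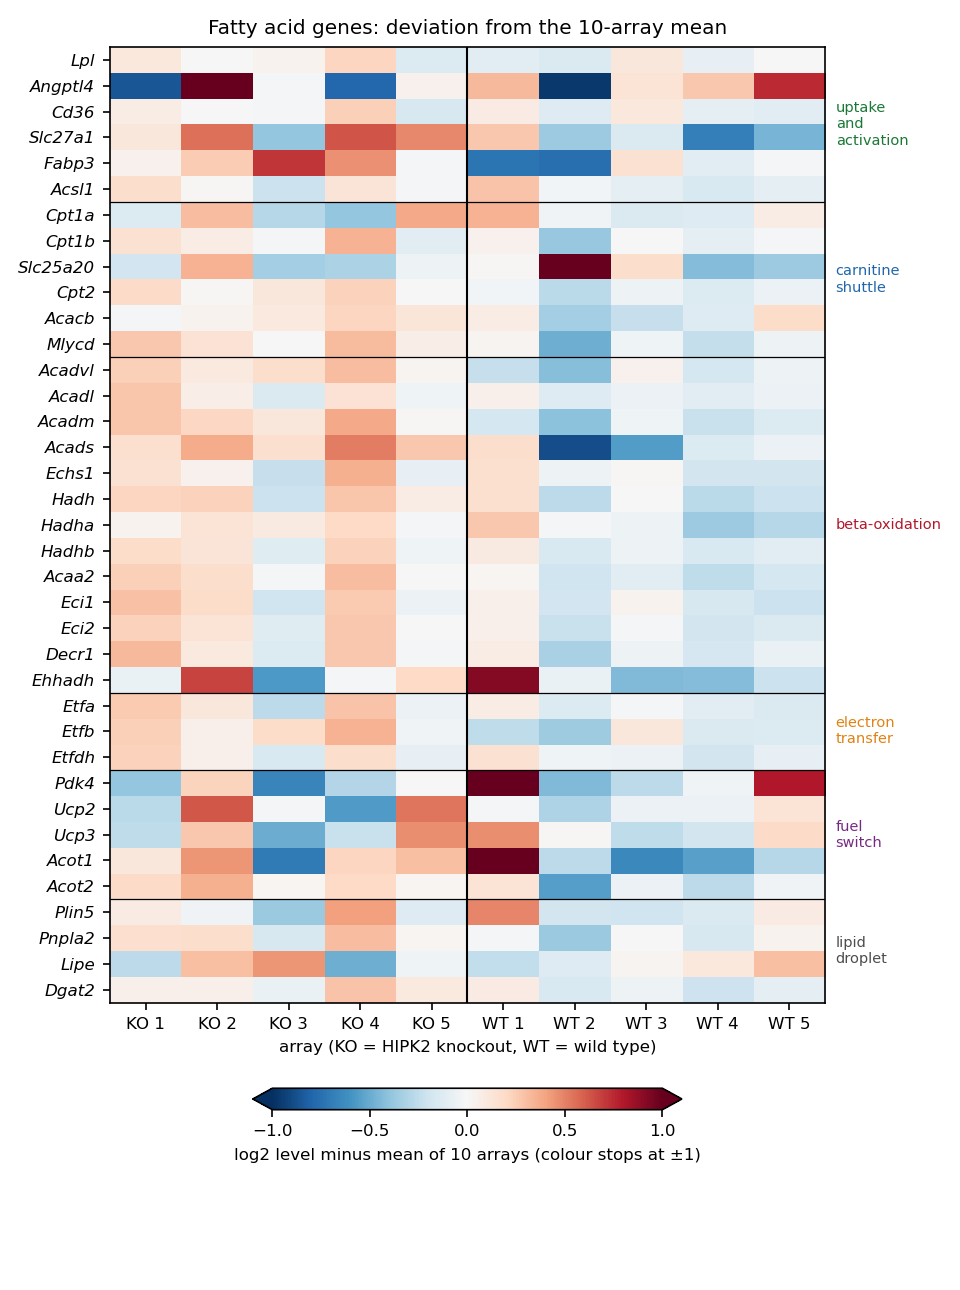
The 37 genes by array. Rows are genes grouped by role, columns are HIPK2 knockout (KO) arrays 1 to 5 and wild-type (WT) arrays 1 to 5, and colour is the log2 level minus the 10-array mean of that gene, stopping at 1 in either direction. The beta-oxidation and electron transfer rows are mostly red on knockout 1, 2 and 4 and blue on wild type 2, 4 and 5, while Pdk4, Acot1 and Ehhadh are darkest on wild type 1.

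Other genes of the same pathways, taken from a list of 102 of which 96 were measured, held 2 that rose, 1 that fell and 93 that did not pass, with a median of 0.03. Over all genes 1.97% rose and 2.97% fell, and the median was also 0.03. Prkab2, a beta subunit of AMP-activated protein kinase, which restrains malonyl-CoA synthesis, had levels of 1.94, 2.07, 1.94, 1.96 and 2.10 in knockout hearts, against 1.66, 1.44, 1.71, 1.65 and 1.63 in wild-type hearts, a fold change of 0.39 ± 0.08 (adjusted p = 0.0271). Acaa1b, a peroxisomal thiolase with a near-identical paralog, Acaa1a, so that its signal may be shared, had levels of 2.66, 2.84, 2.82, 2.86 and 2.66 in knockout hearts, against 2.44, 2.32, 2.51, 2.36 and 2.39 in wild-type hearts, a fold change of 0.37 ± 0.08 (adjusted p = 0.0308). Lpin1, a phosphatidate phosphatase of triglyceride synthesis that also acts as a coactivator, had levels of 3.41, 3.48, 3.75, 3.61 and 3.33 in knockout hearts, against 4.00, 3.88, 3.97, 4.08 and 4.00 in wild-type hearts, a fold change of -0.47 ± 0.09 (adjusted p = 0.0246). The genotypes did not overlap in any of the 3 genes, where this held for 8.98% of all genes. These calls held in 6 (Prkab2), 5 (Acaa1b) and 6 (Lpin1) of the 10 fits that left out an array, with adjusted p up to 0.0645 (without knockout 2), 0.0746 and 0.0627 (both without wild type 4). With the mean of all kept probes of a gene in place of the brightest, Lpin1 was at -0.27 and lost the call (adjusted p = 0.113), while Prkab2 and Acaa1b kept theirs. Each of these 3 genes kept its call in 4 of the 11 alternatives that left out no single array. Without wild type 2, only 1 of the 96 genes was called, so these 3 calls did not all hold there.

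By step, 1 of 13 other carnitine and malonyl-CoA genes rose and 0 fell, and 1 of 23 other oxidation genes rose and 0 fell. Of those 23, 18 were above 0, with a median of 0.09, where 11157 of all 20607 genes were above 0. None of 14 other uptake and activation genes and none of 18 other fuel choice genes passed in limma's test at the adjusted threshold. Of these, 5 and 4 had an unadjusted p under 0.05, where 27.2% of all genes did. Of 28 other droplet and ketone genes 0 rose and 1 fell, with a median of 0.01.

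Among 23 transcriptional regulators of the pathway, 0 rose and 1 fell, where 1.97% of all genes rose and 2.97% fell. Of the 23, 17 were below 0, with a median of -0.08, where 9450 of all 20607 genes were below 0. The gene that fell was Ppargc1a, which encodes PGC-1-alpha, with levels of 3.88, 3.65, 3.26, 3.69 and 3.22 in knockout hearts, against 4.18, 4.15, 4.55, 4.12 and 4.83 in wild-type hearts. Every knockout value was below every wild-type value, which held for 4.44% of all genes. The fold change was -0.82 ± 0.17 (adjusted p = 0.0301), it was -0.84 after quantile normalization (adjusted p = 0.0189), and the call held in 6 of 10 fits that left out an array, with an adjusted p up to 0.0592 without wild type 5. Of the 11 alternatives that left out no single array the call held in 5, and it was lost, for example, with no filter on dim probes (adjusted p = 0.074), within the slide that held both genotypes (adjusted p = 0.0507) and with the fat score as a covariate (adjusted p = 0.124). The other 22 regulators, among them the receptors PPAR-alpha and ERR-alpha, ranged from -0.29 to 0.32. Ppara was at -0.11 ± 0.15 (adjusted p = 0.656) and Esrra at -0.08 ± 0.09 (adjusted p = 0.589), both named after their values were seen.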

How the data were processed

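Total RNA of 10 cardiac samples was read on 1-colour Agilent arrays. Per the file headers, the intensity values deposited for each spot are linear, with background subtracted and a spatial trend removed; the submitters' processing notes name Agilent Feature Extraction 10.7.1.1. The authors also deposited a table of log2 values of the same arrays, whose scaling was not given in the sources used here. All its columns share a median of 4.75, and each correlated best with its own array (r 0.918 to 0.996 across probes).

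From the intensities, the processed signal was divided by the array's own 75th percentile over 59305 non-control spots and put on the log2 scale. Spots of a probe were averaged, and a probe was kept if well above background on at least 4 of 5 arrays of a genotype, which left 30693 probes. Names came from a RefSeq gene table for 32989 of the 56605 probes and from the array for the rest. The brightest kept probe on average stood for its gene. Probe positions are on mm9, and whether a probe lies in an exon or UTR was not examined.

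Knockout was compared with wild type in limma 3.58.1 (R 4.3.3; lmFit, eBayes, no covariate), with Benjamini-Hochberg adjustment over 20607 genes. Checked on simulated data for this comparison (20597 genes without missing values, 200 changed), 24.5% of shifts of 0.5 (log2) were called, 75% of shifts of 1 and 95% of shifts of 2. Alternatives were normexp correction (offset 50), quantile normalization, the deposited table, no filter, the mean of kept probes, slide, slide and row, or replicate number as a block, a fat or an atrial marker score as a covariate, and leaving out each array. The number of arrays limits the precision. Replicate numbers did not pair the samples: same-number correlations of deviations ran from -0.106 to 0.0495.

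The 37 genes, the other lists and the tests were chosen with earlier results of these data known. By the rule for named genes, every one of the 37 is given, and values per array for those past the threshold, the 12 with the smallest p, and Cpt1a, Cpt1b, Cd36, Lpl, Pdk4 and Hadha; of the other lists, genes past the threshold are named. Array values of Ehhadh and Acot1 were added after they were seen.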

Additional observations from a re-analysis of the deposited data

Results flagged for a closer look

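Samples far from the rest of their own genotype were looked for in all 37 genes with Dixon's test (critical value 0.71 for 5 samples), over 74 groups, of which chance flags about 1 in 20. Groups that met it numbered 3, in Acot1 and Ehhadh. Acot1 was 2.35 on knockout array 3, where the next lowest knockout array was at 3.17, and 4.43 on wild-type array 1, where the next highest wild-type array was at 2.79. Ehhadh was 1.44 on wild-type array 1, where the next highest wild-type array was at 0.45. Acot1 and Ehhadh encode a cytosolic thioesterase and a peroxisomal enzyme, and wild-type array 1 also held the highest value of Pdk4, at 7.11, and of Plin5, at 6.77. With that array left out, the log2 fold change was 0.51 for Acot1 and 0.33 for Ehhadh, against 0.14 and 0.09 with all arrays, and neither passed limma's test in either fit.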

How the results depend on the processing

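In limma, 1017 genes, 1 of the 37 fatty acid genes (Acadm) and 3 other pathway genes passed the threshold. With normexp correction the counts were 3111, 2 (Acadm and Acadvl) and 11, and 71.8% of called genes were rises, against 39.8% before. The 37 held 0 calls with quantile normalization and with the deposited table, each of which called 4 other pathway genes. They also held 0 with slide as a block, which called 1 other pathway gene. Call counts with slide and row as blocks are left out here, because that genotype estimate rests on knockout 1 alone. The 37 also held 0, as did the other pathway genes, with no filter (173 genes called), within the slide that held both genotypes (458), with a fat score (7) or an atrial score (57) as covariate, and with replicate number as a block (164). That last fit pairs samples by number, and the numbers did not pair them. The unadjusted p was under 0.05 for 2 to 9 of the 37 in these fits. With 1 array left out, 282 to 940 genes, 0 to 1 of the 37 and 0 to 5 other pathway genes passed. Lowest counts of all genes came without wild-type array 5 (282), wild-type array 4 (304), knockout array 2 (368) and wild-type array 2 (381), and without knockout array 1 or 4 they were 434 and 469; the cause was not tested.

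Over 777 recomputed fold changes of the 37 genes, 680 kept direction and side of the threshold, 78 changed sign with no call in either fit, 18 lost the call of Acadm, 1 gained a call (Acadvl), and 0 called genes changed sign.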
